A study of Arabidopsis thaliana with 47 samples.

Results

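The effect of lincomycin on the transcriptome of Arabidopsis seedlings was examined after 24 h of brighter light. The comparison rests on 7 of the 47 arrays of the study, 4 from seedlings grown with lincomycin and 3 from seedlings grown without it. Both groups were whole Col-0 seedlings, labelled 7 days old and grown on medium with 2% sucrose, with either 0.5 mM lincomycin or none, for 6 d under dim blue plus red light of 0.5 µmol per m2 and s, and then for 24 h at 60 in the same unit. Each array carried RNA pooled from 50 to 100 seedlings, and replicates were grown separately per the study's design text. Lincomycin was in the medium during growth, so 24 h is the time in brighter light and not the length of the treatment. Arrays of both treatments before the brighter light (0 h) and 4 h into it, 4 of each, served for comparison over time. The remaining array at 24 h without lincomycin was left out, because its median rank correlation with the other arrays of the study was 0.619, against 0.914 to 0.949 for the other 46.

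Lincomycin blocks protein synthesis on the ribosomes of plastids, which make core subunits of the photosystems, the large subunit of Rubisco and parts of the plastid's own ribosome and RNA polymerase. Most chloroplast proteins are encoded in the nucleus, and the nucleus lowers many of these transcripts when plastids fail to develop, a response called retrograde signalling in which the protein GUN1 and the GLK transcription factors take part. Lincomycin is a standard tool for this response because the seedlings stay alive on sugar while their plastids stay undeveloped.

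Values are log2(signal + 1) of the ATH1 array, a 1-colour chip with 1 signal per probe set. A change is the mean with lincomycin minus the mean without it (n = 4 and 3), with the standard error and the Benjamini-Hochberg adjusted p of a limma fit over 46 arrays, and probe sets with an adjusted p under 0.05 passed the test. Precision is limited by the few arrays per group. Rank correlations were 0.977 to 0.980 within the 3 arrays without lincomycin, 0.977 to 0.980 within the 4 with it, and 0.948 to 0.954 between the groups. Median signals were 179.5 to 188.4 without lincomycin and 197.9 to 206.4 with it. The spike-in control Dap read 9.24 to 9.47 without lincomycin and 8.95 to 9.33 with it. The array left out had a Dap reading of 3.52 and a GAPDH 3′ minus 5′ difference of 6.31, against 0.94 to 1.11 on the other arrays of its group and 0.62 to 1.04 with lincomycin.

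Of 22746 probe sets, 7321 (32.2%) differed with lincomycin at 24 h. Higher signals were found for 4816 (21.2%) and lower signals for 2505 (11.0%), and the median change over all probe sets was 0.13. Large falls were more numerous than large rises: 1208 probe sets (5.31%) fell by 1 or more on the log2 scale, and 928 (4.08%) rose by as much. The balance of rises and falls depended on the scaling of the arrays. After quantile scaling 3644 probe sets were higher and 2612 lower, at a median change of 0.06. The shares above, from the signals as deposited, are the background for the gene lists that follow, whose members were counted with 1 probe set per gene. Where names follow a small count in brackets, they were picked out after their values were seen. Signals of the 3 and the 4 arrays did not overlap for 37.9% of all probe sets. Where all 7 signals of a gene are given below, the groups did not overlap unless stated.

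Nuclear genes for the light reactions were lower with lincomycin throughout. All 38 measured genes for photosystem subunits and electron carriers fell, with changes from -4.58 to -0.68 and a median of -2.21, and 35 of them fell by 1 or more. Among all probe sets 11.0% were lower and 5.31% fell by as much. Signals of the groups did not overlap for 38 of the 38, against 37.9% of all probe sets. PSBQ-2 (AT4G05180), a subunit of the oxygen-evolving complex of photosystem II, read 14.18, 14.07 and 14.18 without lincomycin and 9.75, 9.43, 9.54 and 9.54 with it. The treated arrays all lay far below the control arrays, at a change of -4.58 ± 0.10, adjusted p = 1.7e-28, which is 23.9-fold lower. PSAD-2 (AT1G03130), a stromal subunit of photosystem I, read 13.83, 13.87 and 13.90 without and 9.73, 9.52, 9.59 and 9.17 with lincomycin (-4.37 ± 0.13, adjusted p = 3e-25). Plastocyanin, the copper protein that carries electrons to photosystem I, is encoded by PETE1 (AT1G76100) and fell by a similar amount (-4.02 ± 0.11). PSAE-2 (AT2G20260), another photosystem I subunit, fell less (-3.43 ± 0.12), and NPQ4 (AT1G44575), the PSBS protein of non-photochemical quenching, changed by -3.22 ± 0.13. In whole seedlings, fewer cells of a type and less RNA per cell cannot be told apart.

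The antenna proteins, which bind chlorophyll around the photosystems, had a median change of -3.0, the lowest of the lists described here. All 12 members with a probe set of their own fell, and 20 were listed. LHCB2.3 (AT3G27690) read 13.55, 13.29 and 13.46 without lincomycin and 8.74, 8.64, 8.43 and 8.10 with it (-4.95 ± 0.26, adjusted p = 5e-18). Its change had been -4.54 at 0 h and -4.75 at 4 h, close to that at 24 h. LHCB6 (AT1G15820), a minor antenna protein of photosystem II, read 14.47, 14.30 and 14.44 without and 9.93, 10.20, 9.71 and 10.02 with lincomycin (-4.44 ± 0.12, adjusted p = 1.5e-26), a difference of -1.50 ± 0.16 from its change at 4 h (adjusted p = 4.6e-09). LHCB4.2 (AT3G08940, -3.81 ± 0.13) and LHCB3 (AT5G54270, -3.52 ± 0.10) behaved like LHCB6, with changes at 4 h of -2.57 and -2.22.

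**Figure D1:**
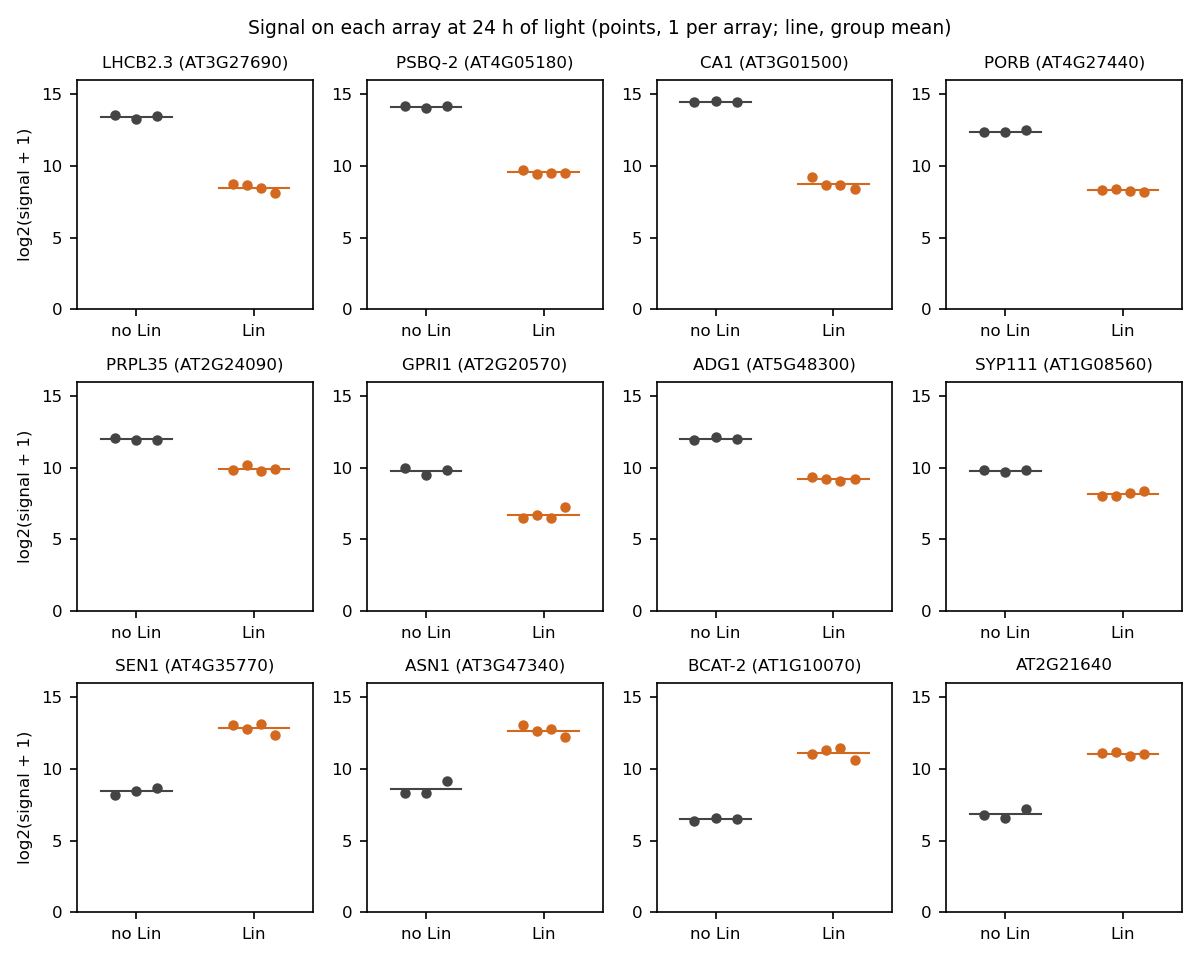
Signal on each of the 7 arrays at 24 h, as log2(signal + 1), for 12 genes, with 3 arrays without lincomycin (grey) and 4 with it (orange); points are arrays and lines are group means. In every panel the points of the 2 groups do not overlap, with the first 8 genes lower and the last 4 higher with lincomycin.

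Genes of carbon fixation followed the same direction. All 16 measured Calvin cycle genes were lower, at a median of -1.58. CP12-2 (AT3G62410), a small protein that holds Calvin cycle enzymes in a complex, read 12.55, 12.51 and 12.53 without lincomycin and 9.64, 9.33, 9.44 and 9.20 with it (-3.13 ± 0.18, adjusted p = 1.7e-16). HCEF1 (AT3G54050), the plastid fructose-1,6-bisphosphatase, changed by -2.90 ± 0.11, sedoheptulose bisphosphatase SBPASE (AT3G55800) by -2.59 ± 0.11 and phosphoribulokinase PRK (AT1G32060) by -2.41 ± 0.11. Rubisco activase RCA (AT2G39730) had a smaller change. It read 14.62, 14.66 and 14.49 without and 13.48, 13.62, 13.68 and 13.18 with lincomycin (-1.10 ± 0.10, adjusted p = 5.6e-11), which differed from its change at 0 h by 0.68 ± 0.14 (adjusted p = 0.00021). With the array left out put back, its change was -0.01 (adjusted p = 0.99), and 12 of the 16 Calvin cycle genes were lower. CA1 (AT3G01500), the chloroplast carbonic anhydrase, had one of the largest falls of all genes. It read 14.47, 14.55 and 14.45 without lincomycin and 9.21, 8.71, 8.66 and 8.42 with it (-5.74 ± 0.18, adjusted p = 1.4e-24), or 53.4-fold lower, after changes of -3.88 at 0 h and -5.46 at 4 h.

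Photorespiration recovers the carbon and ammonium that are released when Rubisco fixes oxygen. All 14 measured genes of this pathway were lower (median -1.54), or 11 after quantile scaling and 10 with the array left out put back. The plastid glutamine synthetase GS2 (AT5G35630), which recaptures the ammonium, read 14.46, 14.37 and 14.47 without and 11.26, 11.32, 11.29 and 11.36 with lincomycin (-3.13 ± 0.09, adjusted p = 3.7e-26). Its changes at 0 h and 4 h had been -1.66 and -1.61, and the difference from 4 h was -1.52 ± 0.12, adjusted p = 4.2e-12. DiT1 (AT5G12860), the 2-oxoglutarate/malate translocator that supplies this step, changed by -3.11 ± 0.10. The plastid glycolate and glycerate transporter LrgB (AT1G32080) changed by -2.63 ± 0.15 and the H protein of glycine decarboxylase, GDCH (AT2G35370), by -2.10 ± 0.10.

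Chlorophyll and haem share the tetrapyrrole pathway. Of its 31 measured genes 27 were lower and 1 higher, with a median of -1.56. The protochlorophyllide reductases, which make chlorophyllide in the light, were among the largest changes. PORB (AT4G27440) read 12.34, 12.35 and 12.49 without lincomycin and 8.33, 8.43, 8.23 and 8.18 with it (-4.10 ± 0.19, adjusted p = 2.2e-19), and POR C (AT1G03630) changed by -3.14 ± 0.12. PORA (AT5G54190), the form of dark-grown seedlings, was near the lower limit of signal with lincomycin, and its fall was at least 1.17. HEME1 (AT3G14930), uroporphyrinogen decarboxylase, changed by -2.50 ± 0.15. The protoporphyrinogen oxidase gene HEMG2 (AT5G14220) did not pass the test (-0.39 ± 0.19, adjusted p = 0.12), but did without control array 2 (-0.54, adjusted p = 0.045). The only member that was higher, picked out after its value was seen, was FC1 (AT5G26030), ferrochelatase 1 of the haem branch (0.36 ± 0.13, adjusted p = 0.029), and after quantile scaling no member was higher.

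The carotenoid list moved less than the chlorophyll list. Of 15 genes 13 were lower (median -0.58), led by BETA-OHASE 2 (AT5G52570), a beta-carotene hydroxylase (-3.41 ± 0.25), and by phytoene synthase PSY (AT5G17230), the first committed step (-2.29 ± 0.12). The sister hydroxylase BETA-OHASE 1 (AT4G25700) gave a change of 0.08 ± 0.11 and did not pass the test, although its changes at 0 h and 4 h had been -1.13 and -0.55. Of 14 genes for plastid isoprenoid precursors and tocopherol 11 were lower (median -1.09), among them DXR (AT5G62790, -1.91 ± 0.10) and ISPF (AT1G63970, -1.60 ± 0.09) of the methylerythritol phosphate pathway. The one that was higher, again singled out by its value, was PDS1 (AT1G06570, 0.83 ± 0.16, adjusted p = 0.00011), whose product 4-hydroxyphenylpyruvate dioxygenase serves both tocopherol synthesis and tyrosine breakdown. Plastid lipid genes were lower in 14 of 18 cases (median -0.58), or in 8 with the array left out put back, with ATS1 (AT1G32200), an acyltransferase of plastid glycerolipids, at -1.71 ± 0.15 and the galactolipid synthase DGD1 (AT3G11670) at -1.08 ± 0.10. FAD5 (AT3G15850), a plastid desaturase, stood at -0.14 ± 0.13 and did not pass, against -2.0 at 0 h and -1.48 at 4 h.

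Nuclear genes for the plastid ribosome, the complex that lincomycin inhibits, were lower at 24 h without exception among those measured. The changes of the 28 measured members lay between -2.05 and -0.83, with a median of -1.34. With the array left out put back 23 passed the test as lower. PRPL35 (AT2G24090) of the large subunit read 12.09, 11.90 and 11.93 without lincomycin and 9.86, 10.19, 9.77 and 9.90 with it (-2.05 ± 0.13, adjusted p = 7.5e-16). PRPS20 (AT3G15190) of the small subunit read 13.51, 13.46 and 13.42 without and 11.58, 11.55, 11.44 and 11.66 with lincomycin (-1.91 ± 0.11, adjusted p = 6.2e-17). At earlier times this list had moved little, with medians of -0.31 at 0 h and -0.26 at 4 h. At 0 h 17 members had been lower (12.2% of all probe sets were) and at 4 h 12 (8.97%). The change at 24 h was lower than at 4 h for 28 of 28 members and lower than at 0 h for 26, where 7.93% and 14.4% of all probe sets had such a difference. PRPL11 (AT1G32990), for example, gave 0.25 at 0 h, -0.26 at 4 h and -1.86 at 24 h. Of 13 cytosolic ribosomal protein genes 1 was higher (EMB3010) and 6 lower, at a median of -0.21, and after quantile scaling 3 were higher and 0 lower at a median of 0.09.

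Chaperones, proteases and targeting factors of the plastid were lower in 22 of 22 cases (median -0.84), in 18 after quantile scaling and in 10 with the array left out put back. CAO (AT2G47450), the CPSRP43 protein of the chloroplast signal recognition particle that inserts antenna proteins into thylakoids, changed by -2.0 ± 0.16 and its partner CPSRP54 (AT5G03940) by -1.67 ± 0.12. The lumen protease DEG1 (AT3G27925) changed by -1.42 ± 0.12. Import and transcription genes were mixed. Of 18 import genes 4 were higher (TOC159, TOC33, TOC64-III and Tic20-IV) and 7 lower, beside 21.2% and 11.0% of all probe sets. Tic62 (AT3G18890) at -2.86 ± 0.14 and Tic20-IV (AT4G03320) at 1.66 ± 0.14 were the extremes. TIC110 (AT1G06950), a central channel component, gave -0.11 ± 0.09, adjusted p = 0.43. Of 20 genes for plastid transcription 3 were higher (SIGE, SCA3 and FLN1) and 7 lower, beside the same shares of all probe sets. Sigma factors guide the plastid-encoded polymerase, and of these SIGA (AT1G64860) changed by -1.43 ± 0.11, SIG4 (AT5G13730) by -1.40 ± 0.18 and SIG2 (AT1G08540) by -1.37 ± 0.13, while SIGE (AT5G24120) rose by 0.86 ± 0.14. The nuclear-encoded plastid polymerase SCA3 (AT2G24120) was also higher (0.95 ± 0.29, adjusted p = 0.011), though not past the threshold without control array 3 (0.81, adjusted p = 0.069).

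Transcripts of the plastid genome itself are made by 1 plastid-encoded polymerase, which serves most photosynthesis genes, and by nuclear-encoded ones. Of 43 photosynthesis genes of the plastid 28 were lower and 0 higher (median -0.80). psbA (ATCG00020), for the D1 protein of photosystem II, read 11.71, 11.84 and 11.57 without lincomycin and 9.98, 9.86, 10.15 and 10.05 with it (-1.70 ± 0.31, adjusted p = 3.8e-05). petB (ATCG00720), for cytochrome b6, read 14.07, 14.07 and 14.09 without and 12.50, 12.28, 12.53 and 12.46 with lincomycin (-1.63 ± 0.14, adjusted p = 8.5e-12). Of 19 genes for the ribosome and polymerase 3 were higher (rpl36, rpl16 and rpl14) and 3 lower (rpl33, rps4 and rps18). Among all probe sets 21.2% were higher and 11.0% lower. rpl33 (ATCG00640) fell by 1.84 and rps18 (ATCG00650) by 1.36, whereas rpl14 (ATCG00780) read 10.57, 11.03 and 11.07 without and 12.12, 12.08, 12.59 and 12.46 with lincomycin, a rise of 1.42 ± 0.20, adjusted p = 4.7e-07. rpl36 (ATCG00760) rose by 1.11 ± 0.19. The median over the plastid photosynthesis genes was -0.79 at 0 h and -0.83 at 4 h, and the effect at 24 h was lower than at 4 h for 1 of 43 and lower than at 0 h for 3. On the array left out, the median plastid signal was 13.59, against 11.52, 11.38 and 11.72 on the other arrays of its group. With that array put back 7 of the ribosome and polymerase genes were lower, and the median change of all 71 plastid genes was -1.22 in place of -0.48.

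Regulators that link plastids to nuclear genes did not all change in one direction: 5 of 8 were lower (GPRI1, GLK2, GUN1, BBX16 and BBX14) and 1 higher (CGA1). GPRI1 (AT2G20570), known as GLK1, is an activator of photosynthesis genes. It read 9.99, 9.47 and 9.85 without lincomycin and 6.49, 6.68, 6.49 and 7.24 with it (-3.05 ± 0.29, adjusted p = 1.2e-10). Its partner GLK2 (AT5G44190) read 10.80, 10.92 and 11.08 without and 8.26, 8.29, 8.08 and 8.27 with lincomycin (-2.71 ± 0.10, adjusted p = 9.4e-22). The change of GPRI1 had been -3.05 at 4 h and -0.66 at 0 h, and that of GLK2 -3.20 and -2.48. The B-box gene BBX16 (AT1G73870) read 9.17, 8.82 and 8.83 without lincomycin and only 2.04, 3.99, 3.88 and 3.42 with it. The treated signals were dim, so its fall is given as at least 3.35 on the log2 scale. BBX14 (AT1G68520), a related B-box gene, changed by -1.78 ± 0.19.

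GUN1 (AT2G31400), the plastid protein of retrograde signalling, read 11.87, 12.06 and 11.81 without lincomycin and 11.41, 11.16, 11.22 and 11.34 with it (-0.63 ± 0.08, adjusted p = 1.1e-07), after changes of -0.32 at 0 h and -0.33 at 4 h. The GATA factors of greening showed no fall. CGA1 (AT4G26150), singled out after its value was seen, read 7.46, 7.21 and 7.38 without and 9.03, 9.12, 9.33 and 8.87 with lincomycin. Every treated array was above every control array, a rise of 1.74 ± 0.20, adjusted p = 1.1e-08, although its change at 0 h had been -1.65. Its effect at 24 h exceeded that at 0 h by 3.39 ± 0.28 (adjusted p = 3.8e-12). Its close relative GNC (AT5G56860) gave 0.37 ± 0.15, adjusted p = 0.052, and without control array 2 0.52, adjusted p = 0.012.

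**Figure D2:**
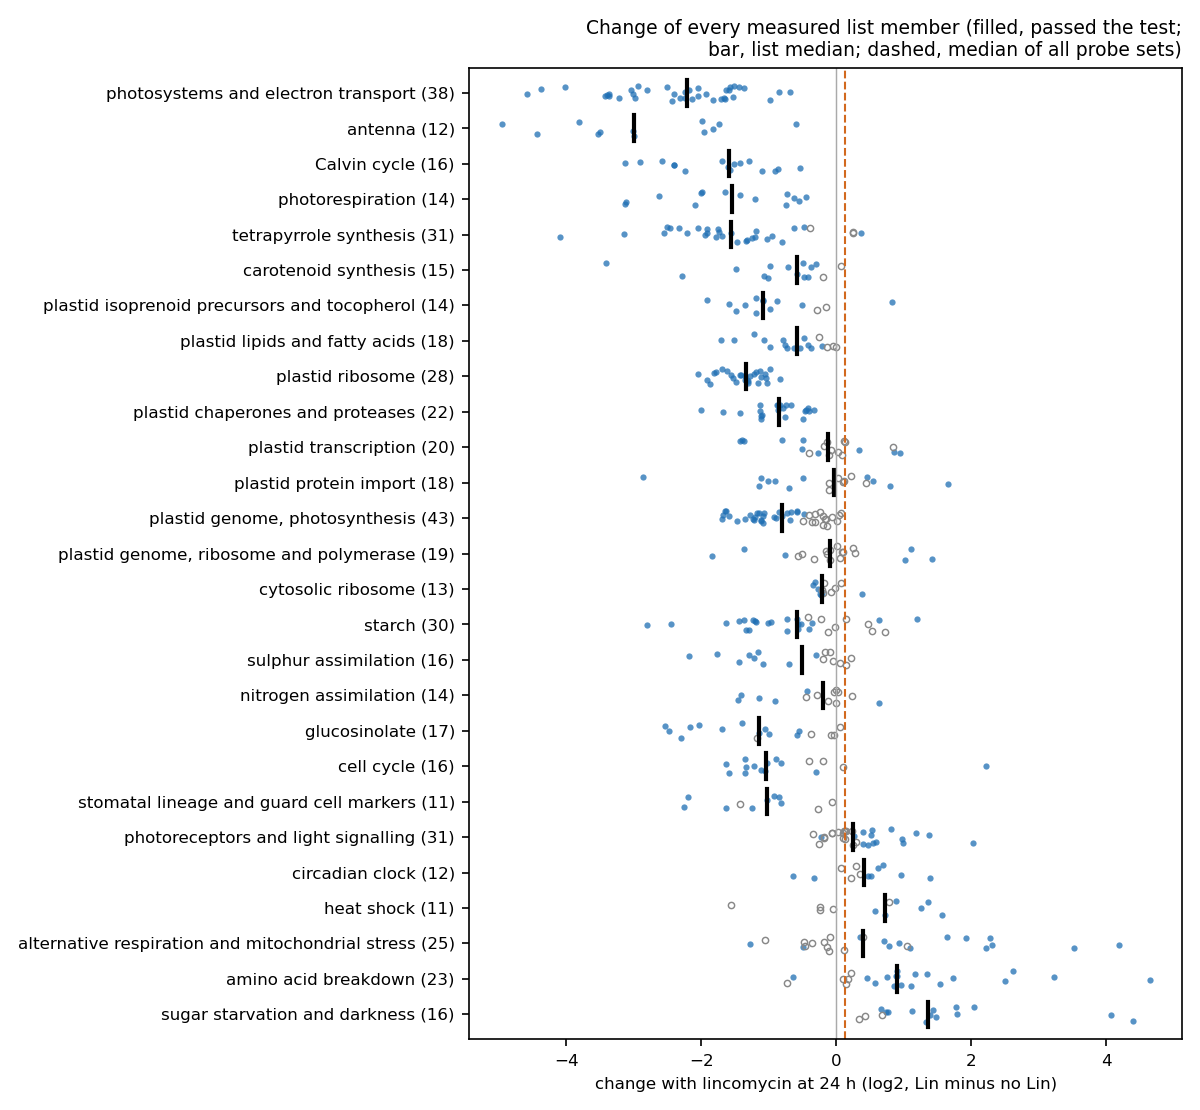
Change with lincomycin at 24 h (log2, mean of 4 arrays with it minus mean of 3 without) for each measured member of 27 gene lists, with the number of members in brackets. Filled points passed the test, open points did not, black bars are list medians and the dashed line is the median of all 22746 probe sets (0.13). The antenna list has the lowest median (-3.0) and the list of sugar starvation and darkness the highest (1.35).

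Of 31 photoreceptor and light-signalling genes 14 were higher and 1 lower (PHOT1) at a median of 0.25, and 16 did not pass. Among all probe sets 21.2% were higher and 11.0% lower, at a median of 0.13. After quantile scaling 12 of the 31 were higher. HY5 (AT5G11260), a transcription factor that promotes light responses, read 7.09, 7.34 and 6.97 without lincomycin and 8.80, 8.62, 8.44 and 8.18 with it (1.38 ± 0.17, adjusted p = 4.5e-08). RUP1 (AT5G52250), a negative regulator of the UV-B receptor, changed by 2.03 ± 0.17 and PKS1 (AT2G02950), a phytochrome-binding protein of the phototropism pathway, by 1.17 ± 0.15. PHYA (AT1G09570), the phytochrome that is abundant in darkness, read 10.15, 10.41 and 10.47 without and 11.44, 11.37, 11.39 and 11.15 with lincomycin (0.99 ± 0.08, adjusted p = 3.3e-12), after a change of -0.69 at 0 h. Clock genes were higher in 6 of 12 cases and lower in 2 (GI and TCP11), beside 21.2% and 11.0% of all probe sets. With the array left out put back 0 clock genes were lower. The evening gene PRR5 (AT5G24470) rose by 1.38 ± 0.16, adjusted p = 4e-09 and the photoreceptor F-box gene ZTL (AT5G57360) by 0.96 ± 0.13. LHY (AT1G01060), a morning gene, gave 0.36 ± 0.15, adjusted p = 0.064, and passed without control array 1 (0.50, adjusted p = 0.021) or treated array 4 (0.41, adjusted p = 0.049).

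Of 30 genes of starch metabolism 20 had lower transcript levels with lincomycin, 2 had higher ones and 8 did not pass the test (median -0.58). ADG1 (AT5G48300), the small subunit of ADP-glucose pyrophosphorylase and thus of the first committed enzyme, read 11.95, 12.09 and 11.99 without lincomycin and 9.37, 9.19, 9.07 and 9.21 with it (-2.80 ± 0.16, adjusted p = 1.1e-16). At 0 h its change had been 0.19. Granule-bound starch synthase GBSS1 (AT1G32900) changed by -2.45 ± 0.18, the large subunit APL1 (AT5G19220) by -1.64 ± 0.13 and the plastid glucan phosphorylase PHS1 (AT3G29320) by -1.44 ± 0.14. The 2 genes that were higher, named after their values were seen, were BAM4 (AT5G55700), a regulator of starch breakdown (1.2 ± 0.13, adjusted p = 1.1e-09), and the glucose-6-phosphate translocator gene GPT1 (AT5G54800, 0.63 ± 0.11, adjusted p = 8.4e-06). The sucrose phosphate synthase gene ATSPS4F (AT4G10120), outside this list, read 10.50, 10.35 and 10.50 without and 5.94, 6.60, 5.92 and 4.98 with lincomycin (-4.59 ± 0.37, adjusted p = 8.7e-13).

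Genes known for their response to darkness and low sugar had the highest median of the lists described here. Of 16 measured 13 were higher and 0 lower, at a median of 1.35, although both groups grew on sucrose. SEN1 (AT4G35770), also called DIN1 for dark-inducible, read 8.21, 8.44 and 8.65 without lincomycin and 13.06, 12.78, 13.15 and 12.36 with it (4.40 ± 0.17, adjusted p = 9.3e-22), 21.1-fold higher. ASN1 (AT3G47340), an asparagine synthetase that stores nitrogen when carbon is short, read 8.36, 8.31 and 9.19 without and 13.05, 12.63, 12.82 and 12.23 with lincomycin (4.06 ± 0.17, adjusted p = 2.2e-20). For both genes the lowest treated array, the fourth, was still well above the highest control array. AT3G15450 of the same list changed by 2.04 ± 0.16 and the beta-galactosidase BGAL4 (AT5G56870) by 1.78 ± 0.14. DIN2 (AT3G60140), another dark-inducible gene, gave 0.43 ± 0.19, adjusted p = 0.096 and did not pass, but did without treated array 4 (0.54, adjusted p = 0.039).

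The direction of this list had turned since 0 h. In dim light 15 of the 16 genes were lower with lincomycin (12.2% of all probe sets were) and the median was -1.13. At 4 h it was -0.05. The effect at 24 h was higher than at 4 h for 15 of the 16 (10.4% of all probe sets) and higher than at 0 h for 16 (15.6%). As many as 12 of the 16 passed the test at both 0 h and 24 h in opposite directions, against 7.12% of all probe sets. SEN1 went from -1.95 at 0 h through 0.13 at 4 h to 4.40 at 24 h, and ASN1 from -1.90 through -0.13 to 4.06. The effects differed between 24 h and 4 h by 4.27 ± 0.23 for SEN1 (adjusted p = 1.8e-15) and 4.19 ± 0.24 for ASN1 (adjusted p = 3.3e-15).

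Breakdown of amino acids feeds the mitochondrial electron chain when sugar is scarce, and its genes moved the same way. Of 23 measured 17 were higher and 1 lower (median 0.89). The branched-chain aminotransferase BCAT-2 (AT1G10070) read 6.37, 6.61 and 6.49 without lincomycin and 11.06, 11.32, 11.50 and 10.63 with it (4.64 ± 0.18, adjusted p = 1.4e-21), a 24.9-fold rise and among the largest of all genes. THA1 (AT1G08630), threonine aldolase, read 6.11, 5.83 and 6.51 without and 9.71, 9.32, 9.95 and 8.53 with lincomycin (3.23 ± 0.28, adjusted p = 6.3e-12). Proline dehydrogenase ERD5 (AT3G30775) rose by 2.62 ± 0.15 and MCCA (AT1G03090), a carboxylase of leucine breakdown, by 2.50 ± 0.14. MGL (AT1G64660), methionine gamma-lyase, gave 0.22 ± 0.11, adjusted p = 0.15. The single member that was lower, named after its value was seen, was another branched-chain aminotransferase gene, BCAT-1 (AT1G10060, -0.64 ± 0.20, adjusted p = 0.012). At 0 h 17 of these genes had been lower with lincomycin, at a median of -1.04, and 14 passed at both times in opposite directions. Among all probe sets 12.2% were lower at 0 h and 7.12% passed at both times in opposite directions.

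**Figure D3:**
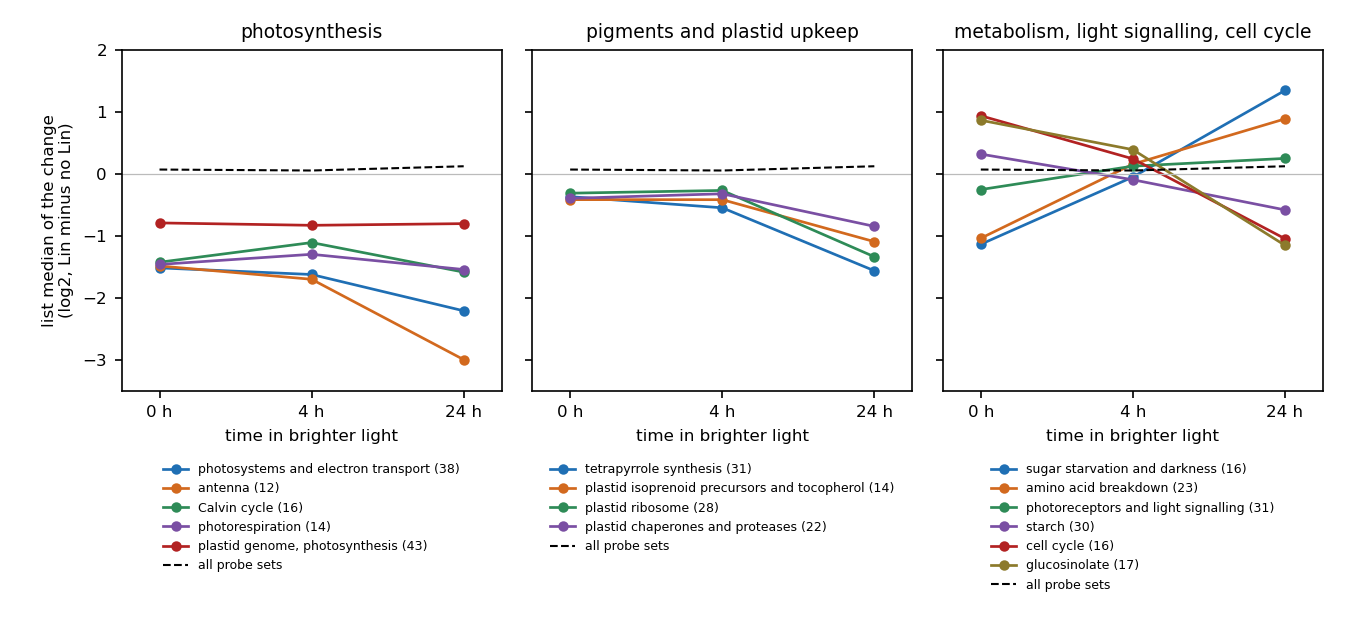
Median change with lincomycin (log2, with minus without) over the measured members of 15 gene lists at 0 h, 4 h and 24 h of brighter light, with the number of members in brackets and the median of all probe sets dashed. The lists on the left and in the middle stay below 0 at each time, and in the right panel starvation and amino acid breakdown genes rise from below 0 to above it while cell cycle and glucosinolate genes fall from above 0 to below it.

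Genes of alternative respiration and mitochondrial stress were higher in 12 of 25 cases and lower in 2 (NDA1 and NDB1), at a median of 0.40. Among all probe sets 21.2% were higher and 11.0% lower. Of the 25 genes 3 were below the floor in both groups. With the array left out put back 9 were higher. AT2G21640 read 6.83, 6.59 and 7.24 without lincomycin and 11.14, 11.22, 10.88 and 11.08 with it (4.19 ± 0.26, adjusted p = 5.4e-16). Unlike the starvation genes it had been higher at each time, by 2.31 at 0 h and 2.83 at 4 h. NAC13 (AT1G32870), a transcription factor of mitochondrial stress signalling, rose by 2.3 ± 0.16, adjusted p = 1e-14. AOX1A (AT3G22370), the main alternative oxidase, read 10.97, 11.03 and 10.85 without and 11.91, 11.94, 11.78 and 11.89 with lincomycin (0.93 ± 0.10, adjusted p = 3.7e-09). AOX1C (AT3G27620), a second oxidase, and TIM17-1 (AT1G20350), an import channel subunit, were near the floor without lincomycin and rose by at least 1.60 and at least 1.86. The uncoupling protein gene PUMP1 (AT3G54110) gave -0.09 ± 0.11, adjusted p = 0.64. Of 28 genes of the mitochondrial genome 5 were higher (cox1, nad4, ATMG00630, ATMG00010 and ATMG00150), beside 21.2% of all probe sets. In both groups 6 of the 28 were below the floor. Among the 5, ATMG00010 gave 0.71, adjusted p = 0.079 without treated array 2 and ATMG00630 0.78, adjusted p = 0.085 without control array 2. With the array left out put back 0 genes of this list were higher and 1 lower.

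Genes of sulphur and nitrogen assimilation, only some steps of which take place in plastids, were lower in part. Of 16 sulphur genes 9 were lower and 0 higher (median -0.50). APR1 (AT4G04610), adenosine phosphosulphate reductase, read 10.20, 9.85 and 10.13 without and 7.84, 7.69, 7.83 and 8.14 with lincomycin (-2.18 ± 0.15, adjusted p = 2e-14). The plastid cysteine synthase OASB (AT2G43750) changed by -1.76 ± 0.11, ATP sulphurylase APS3 (AT4G14680) by -1.44 ± 0.23 and sulphite reductase SIR (AT5G04590) by -1.29 ± 0.12. Of 14 nitrogen genes 5 were lower (NIA2, NIR1, NRT1.1, GSR2 and ASN3) and 1 higher (GLN1.3). With the array left out put back 1 was lower. Among all probe sets 11.0% were lower and 21.2% higher. Nitrate reductase NIA2 (AT1G37130) fell by 1.41 on the log2 scale, its second isoform NIA1 (AT1G77760) gave -0.28 ± 0.16, adjusted p = 0.19, and the nitrate transporter NRT1.1 (AT1G12110) changed by -1.15 ± 0.14. ASN3 (AT5G10240), an asparagine synthetase of another class than ASN1, moved the opposite way from it (-1.45 ± 0.17).

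Antioxidant genes moved in both directions. Of 25 genes 4 were higher (APX2, CAT3, RHL41 and FER1) and 8 lower, beside 21.2% and 11.0% of all probe sets. The plastid peroxiredoxins 2-Cys Prx B (AT5G06290) and PRXQ (AT3G26060) changed by -2.73 ± 0.10 and -2.34 ± 0.12, and thylakoid ascorbate peroxidase TAPX (AT1G77490) by -2.55 ± 0.21. Peroxisomal catalase CAT2 (AT4G35090) gave -0.13 ± 0.10, adjusted p = 0.37, against a change of -2.34 at 0 h. APX2 (AT3G09640), a cytosolic ascorbate peroxidase, passed the test but was below the floor in both groups, with 2.40, 5.47 and 1.45 without lincomycin and 5.09, 5.58, 5.29 and 5.48 with it, and the groups overlapped, so no fold is given. The floor is the first quartile of each array's signals.

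Glucosinolates are sulphur-rich defence compounds of the cabbage family. Of 17 measured genes 12 were lower and 0 higher, at a median of -1.15, and the largest changes were in the aliphatic branch. BCAT4 (AT3G19710), which starts methionine chain elongation, read 11.95, 11.63 and 11.91 without lincomycin and 8.95, 9.07, 9.35 and 9.79 with it (-2.54 ± 0.31, adjusted p = 2.6e-08). MAM1 (AT5G23010), the next enzyme, changed by -2.48 ± 0.21, CYP83A1 (AT4G13770), a cytochrome P450 of the core pathway, by -2.3 ± 0.32 and the transporter BAT5 (AT4G12030) by -2.16 ± 0.28. CYP79B3 (AT2G22330) of the indolic branch gave 0.06 ± 0.13, adjusted p = 0.8. At 0 h 15 of the 17 genes had been higher with lincomycin (19.1% of all probe sets were), and at 4 h 7 (13.6%). The effect at 24 h was lower than at 4 h for 14 and lower than at 0 h for 15, with differences from 4 h of -3.72 ± 0.44 for CYP83A1 and -3.66 ± 0.42 for BCAT4 (adjusted p = 5.1e-08 and 3.8e-08).

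Jasmonate, a wound and defence hormone, is made from plastid lipids. Of 11 genes of its synthesis and response 4 were lower (LOX2, AOS, OPR3 and CORI3) and 2 higher (AOC4 and MYC2). Among all probe sets 11.0% were lower and 21.2% higher. OPR3 gave -0.35, adjusted p = 0.12 without control array 2. LOX2 (AT3G45140), the plastid lipoxygenase at the start of the pathway, read 11.48, 11.25 and 11.47 without lincomycin and 6.53, 7.53, 7.58 and 8.48 with it (-3.87 ± 0.41, adjusted p = 1.1e-09). It had been higher with lincomycin at 0 h (2.72), and the difference between the times was -6.59 ± 0.56, adjusted p = 8.5e-12. Allene oxide synthase AOS (AT5G42650) changed by -1.89 ± 0.23. Among 7 salicylate genes 2 were higher (BGL2 and NPR1) and 1 lower, beside 21.2% and 11.0% of all probe sets. The synthesis gene EDS16 (AT1G74710) fell by 1.94 on the log2 scale, and BGL2 (AT3G57260), the defence marker PR2, rose from a dim 1.79, 3.96 and 2.92 to 6.35, 4.55, 7.55 and 5.46, at least 0.42 on the log2 scale.

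Of 26 flavonoid genes 7 were higher and 2 lower (4CL1 and PAP1), beside 21.2% and 11.0% of all probe sets. Of the 26, 3 were below the floor in both groups, among them TT8 (AT4G09820), which was counted as higher. Flavanone 3-hydroxylase F3H (AT3G51240) rose by 0.93 ± 0.24, adjusted p = 0.0022, and the anthocyanin regulator PAP1 (AT1G56650) changed the other way (-1.97 ± 0.42, adjusted p = 0.00028). Heat shock genes were higher in 6 of 11 cases and lower in 0 (median 0.72), beside 21.2% and 11.0% of all probe sets. With the array left out put back 4 were higher and 1 lower. Of the 11, 2 were below the floor in both groups, among them HSFA2 (AT2G26150), which was counted as higher. The chaperones HSP90.1 (AT5G52640) and HSA32 (AT4G21320) changed by 0.88 ± 0.17 and 1.36 ± 0.26, and HSP101 (AT1G74310) did not pass (-0.24 ± 0.29, adjusted p = 0.61). Of 7 genes of abscisic acid and desiccation 4 were higher (RAB18, LEA4-5, LTI78 and ABI5) and 0 lower. Among all probe sets 21.2% were higher and 11.0% lower. LEA4-5 did not pass without treated array 4, at 0.90, adjusted p = 0.11. ABI5 (AT2G36270) was below the floor without lincomycin, its groups overlapped, and its rise was at least 0.23. RAB18 (AT5G66400), a dehydrin, read 7.82, 7.58 and 7.69 without and 9.58, 9.88, 9.78 and 9.69 with lincomycin (2.03 ± 0.22, adjusted p = 1.6e-09), after changes of -2.65 at 0 h and -1.39 at 4 h.

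Genes of the cell cycle were lower with lincomycin at 24 h, with 12 of 16 lower and 1 higher (median -1.04). SYP111 (AT1G08560), the syntaxin of cytokinesis also known as KNOLLE, read 9.86, 9.68 and 9.79 without lincomycin and 7.99, 8.02, 8.20 and 8.36 with it (-1.63 ± 0.12, adjusted p = 2.5e-13). PRL (AT4G02060) and MCM3 (AT5G46280), parts of the helicase that opens replication origins, changed by -1.59 ± 0.20 and -1.35 ± 0.43, the second with -1.27, adjusted p = 0.054 without control array 1. The exception was CYCB1;1 (AT4G37490), a cyclin of mitosis that is also induced by DNA damage. It read 6.91, 7.53 and 7.29 without and 9.66, 9.51, 9.32 and 9.39 with lincomycin (2.22 ± 0.30, adjusted p = 1.6e-07) and was higher at each time (2.21 at 0 h and 1.78 at 4 h). The other members had been higher too at 0 h, where all 16 of 16 passed the test (median 0.94; 19.1% of all probe sets were higher then). Of these, 12 passed at both times in opposite directions, as did 7.12% of all probe sets.

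Markers of the stomatal lineage, which divides in young leaves and cotyledons, were lower in 8 of 11 cases and higher in 0 (median -1.03). SPCH (AT5G53210), the factor that starts the lineage, read 6.58, 7.01 and 7.21 without lincomycin and 3.80, 5.83, 5.72 and 3.61 with it, a fall of at least 1.29. SDD1 (AT1G04110), a protease that limits stomatal density, changed by -2.25 ± 0.62, adjusted p = 0.0044 and the guard cell channel KAT1 (AT5G46240) by -1.24 ± 0.43, adjusted p = 0.025. Without control array 1 or treated array 1, KAT1 was not past the threshold (-1.12, adjusted p = 0.094 and -1.10, adjusted p = 0.073). ERL1 (AT5G62230) gave -0.27 ± 0.38, adjusted p = 0.67. Of 11 root markers 1 was higher (CASP1) and 1 lower (IRT1), and of 7 vascular markers 1 was higher (XCP1) and 1 lower (SUC2). Among all probe sets 21.2% were higher and 11.0% lower. Without 1 array, CASP1 (0.38, adjusted p = 0.071, control 1), IRT1 (-0.57, adjusted p = 0.18, control 3) and SUC2 (-0.17, adjusted p = 0.22, treated 3) no longer passed. The root marker PYK10 (AT3G09260) read 14.72, 14.52 and 14.57 without and 14.49, 14.71, 14.60 and 14.58 with lincomycin, and its groups overlapped. Of 8 epidermis markers 3 were higher (CER3, KCS6 and KCS10) and 2 lower (ATML1 and MYB0), beside 21.2% and 11.0% of all probe sets. With the array left out put back 5 were higher. The trichome gene MYB0 (AT3G27920) fell by at least 0.65. The part of changed tissue proportions in the lists above was not tested. None of 7 seed storage markers passed limma's test, and 0 had an unadjusted p under 0.05.

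Of 15 cell wall genes 4 were higher (TCH4, XTH33, CEV1 and CESA4) and 5 lower (EXPA1, EXPA5, EXPA8, EXPA11 and IAA19), beside 21.2% and 11.0% of all probe sets. After quantile scaling 2 were higher, and with the array left out put back 3 were lower. XTH33 was below the floor in both groups and did not pass without control array 3 (adjusted p = 0.53). TCH4 (AT5G57560), a touch-induced wall enzyme, read 7.49, 8.51 and 7.61 without lincomycin and 11.25, 10.78, 10.86 and 10.74 with it (3.04 ± 0.20, adjusted p = 3.8e-15), whereas it had been lower with lincomycin at 0 h and 4 h (-1.72 and -1.68). The expansin EXPA8 (AT2G40610) read 11.23, 11.21 and 11.42 without and 9.20, 9.08, 8.62 and 8.79 with lincomycin (-2.37 ± 0.13, adjusted p = 1.7e-17). Of 7 genes often used as references 3 were higher (ACT2, PEX4 and AT2G28390), beside 21.2% of all probe sets. AT2G28390 did not pass without control array 1 (0.17, adjusted p = 0.31). ACT2 (AT3G18780) read 12.58, 12.39 and 12.49 without and 13.07, 13.07, 13.09 and 12.84 with lincomycin (0.53 ± 0.08, adjusted p = 9.7e-07), while GAPC2 (AT1G13440) gave -0.10 ± 0.07, adjusted p = 0.35.

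Beyond the lists, the 15 largest rises held several genes with little annotation. AT1G20120 read 3.11, 4.40 and 5.99 without lincomycin and 9.04, 9.53, 9.18 and 8.92 with it, a rise of at least 3.48. The transcription factor gene NAC103 (AT5G64060) and the chromatin gene chr31 (AT1G05490) also came from near the floor, with rises of at least 3.13 and at least 3.18. BCB (AT5G20230), a blue copper protein tied to senescence, read 8.24, 9.06 and 8.28 without and 12.27, 12.07, 11.97 and 11.47 with lincomycin (3.42 ± 0.24, adjusted p = 4.5e-14). It had been lower with lincomycin at 0 h and 4 h (-2.01 and -1.77), and had the largest positive difference from 4 h among the genes named by the signal rule (5.19 ± 0.33, adjusted p = 6.4e-14). The lipid transfer protein LTP3 (AT5G59320) rose by 3.31 ± 0.19, adjusted p = 5.9e-17. The other rises in this set were AT1G17960 (3.53 ± 0.37), AT4G25580 (at least 2.87), OCT2 (AT1G79360), an organic cation transporter (3.21 ± 0.23), and AT1G19530 (3.19 ± 0.19).

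Among the 15 largest falls, AT1G13650 read 9.16, 8.84 and 9.43 without lincomycin and 3.42, 2.63, 1.38 and 2.34 with it. The treated signals were at the floor, and the fall was at least 3.55, in contrast to a change of -0.23 at 0 h. AT2G34620 read 11.35, 11.37 and 11.49 without and 5.94, 5.94, 5.96 and 5.97 with lincomycin (-5.45 ± 0.27, adjusted p = 1.6e-18), and the 4 treated arrays were close together. AT3G28270 fell by a like amount at each time (-5.34 at 0 h, -5.67 at 4 h and -5.14 at 24 h), as did the aldolase gene FBA5 (AT4G26530, -4.72, -4.55 and -4.46). The germin-like gene GER3 (AT5G20630) changed by -4.19 ± 0.21, AT5G48490 by -4.92 ± 0.21 and AT1G21500 by -4.47 ± 0.23. The methyl esterase gene MES18 (AT5G58310) was dim with lincomycin, and its fall was at least 2.14.

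**Figure D4:**
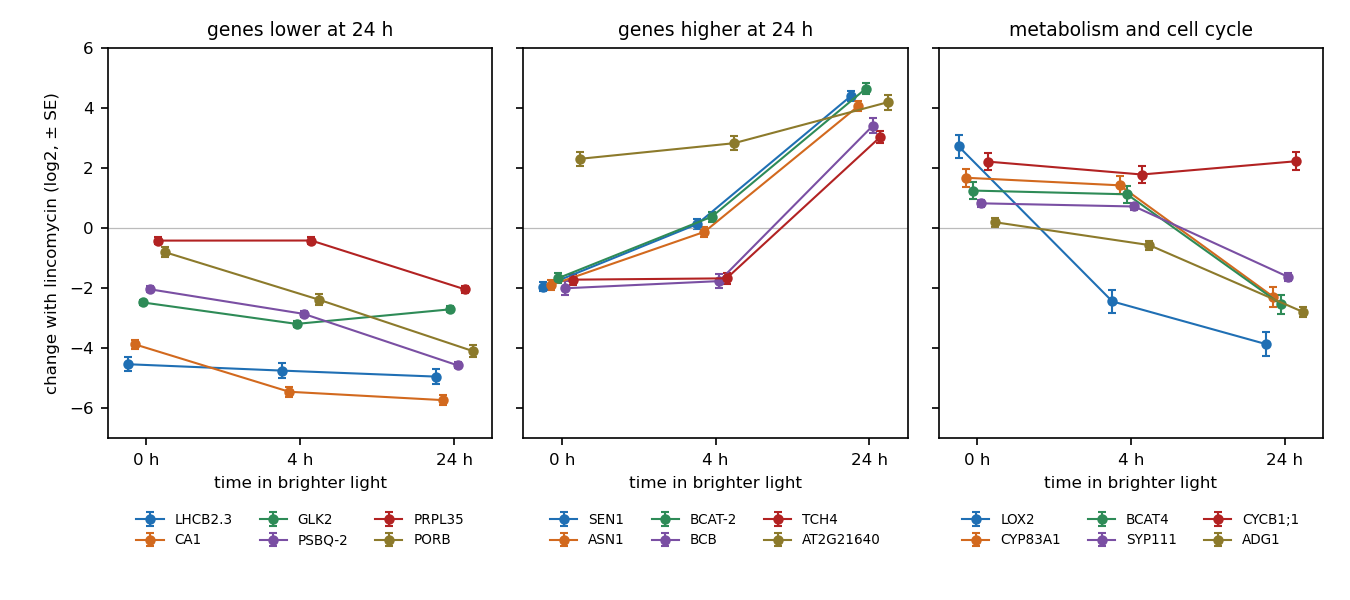
Change with lincomycin (log2, with minus without, ± SE of the limma fit) of 18 named genes at 0 h, 4 h and 24 h of brighter light. LHCB2.3 and GLK2 are below -2 at each time, PORB and PSBQ-2 fall further, SEN1, ASN1, BCAT-2, BCB and TCH4 pass from below 0 to above 3, and CYP83A1, BCAT4 and LOX2 pass from above 0 to below -2.

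The effect of lincomycin at 24 h was then set against its effect at 4 h and at 0 h, each measured on arrays of its own time (4 and 4 arrays, at 0 h those numbered 5 to 8). Both differences use the same 7 arrays at 24 h and are therefore not independent of each other. The effect differed from that at 4 h for 4161 probe sets (18.3%), of which 1443 had the same direction and a larger size at 24 h, 308 the same direction and a smaller size, and 2410 opposite signs. It differed from that at 0 h for 6844 probe sets (30.1%), with 1146 larger, 788 smaller and 4910 of opposite sign. Over all probe sets, 1620 (7.12%) passed the test at both 24 h and 0 h in opposite directions, and 450 (1.98%) at both 24 h and 4 h. A lower effect at 24 h than at 4 h was called for 7.93% of all probe sets and a lower one than at 0 h for 14.4%. Among photosystem genes 28 of 38 had a lower effect at 24 h than at 4 h and 25 a lower one than at 0 h, and of the 12 antenna genes 10 and 9. For tetrapyrrole genes the counts were 21 and 22 of 31, with list medians of -0.36 at 0 h, -0.54 at 4 h and -1.56 at 24 h.

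The largest positive differences from 0 h belonged to SEN1 (6.35 ± 0.23), BCAT-2 (6.32 ± 0.25), PAP85 (AT3G22640, 6.16 ± 0.61), ASN1 (5.97 ± 0.24) and THA1 (5.87 ± 0.38). The largest negative ones, after LOX2, were those of AT1G13650 (-6.47 ± 1.03), MES18 (-5.32 ± 0.75), the receptor kinase gene CRK21 (AT4G23290, -5.24 ± 0.94) and AT2G25510 (-5.16 ± 0.67). The sizes for AT1G13650 and MES18 rest on dim signals with lincomycin. PHI-1 (AT1G35140), a phosphate-induced gene, read 6.01, 6.25 and 5.30 without lincomycin and 8.81, 8.09, 8.12 and 8.26 with it (2.47 ± 0.22, adjusted p = 2.7e-11) and differed from 4 h by 4.68 ± 0.31, adjusted p = 9.1e-14. AT3G05730 did not pass the test at 24 h (-0.15 ± 0.44, adjusted p = 0.85) but had been 3.79 at 4 h, a difference of -3.94 ± 0.60, adjusted p = 5e-06.

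The authors' deposited table of comparisons holds the same contrast for 20396 of the probe sets, with a log ratio whose base is read here as log2. Of 1971 probe sets with a large change here, 1824 had the same sign in the authors' deposited table. Of all 6884 that passed the test 6394 did, and of all 20396 probe sets 14846 did. That table stems from the same study, so it is not independent, and the arrays behind it are not named. Among 211 named genes in it, 13 that passed here had the opposite sign there. The authors' deposited table gives 5.29 for SEN1, -5.86 for CA1, -5.10 for LHCB2.3, -4.11 for GPRI1 and 1.82 for HY5. For Rubisco activase the authors' deposited table gives -0.12.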

How the data were processed

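RNA of whole Arabidopsis seedlings was hybridised to 47 Affymetrix ATH1 arrays, and 7 were compared here. The intensity values were used as deposited by the authors, as 1 linear signal per probe set with every array scaled to a common level; MAS5 and GCRMA appear in the submitters' processing notes, with no versions and no statement of which made which table. Per the file headers, the authors' deposited table gives a log ratio, with no base named and read here as log2, and a p-value whose test is not given.

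Signals were transformed as log2(signal + 1). After 64 control probe sets were removed, 22746 of 22810 remained, of which 21487 had 1 gene in the platform annotation; 503 with several genes and 688 with none were tested but not named, nor were 68 whose annotations disagreed. One limma model (version 3.58.1, R 4.3.3) with lmFit and eBayes was fitted over 46 arrays in 12 groups, with the 0 h arrays numbered 1 to 4 and 5 to 8 as separate groups and 34 residual degrees of freedom. P-values were adjusted by the Benjamini-Hochberg method over all 22746 probe sets. The effects at 24 h, 4 h and 0 h (arrays 5 to 8) and the differences between them were contrasts of this model, which was tested on simulated data. A group mean below the arrays' first quartile was taken as not above background, and the change is then given as at least the distance to that floor. Each gene was represented by its probe set with the highest mean signal. Tables and figures were made with Python 3.11.15, pandas 2.3.3, numpy 2.4.6, scipy 1.17.1 and matplotlib 3.10.9.

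Same-numbered arrays at 24 h deviated from their group means with correlations of 0.01, -0.0013 and -0.0107, so numbers were not treated as pairs. The members and gene lists were chosen with earlier results of these data known. The text names the 15 genes that rose most and the 15 that fell most among those past the threshold, with a group mean at or above the median signal and no overlap between groups, up to 4 called members and 1 not called of each list, the 5 highest and 5 lowest differences from 4 h and from 0 h, and 10 fixed genes. Alternatives were all 47 arrays, the 7 arrays alone, late arrays only, array weights, quantile scaling, a pseudocount of 16, a filter on dim probe sets, a replicate block, each array left out in turn, and the authors' deposited table. A search of promoters for motifs was not run.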

Additional observations from a re-analysis of the deposited data

Results flagged for a closer look

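With lincomycin, 1 of the 4 arrays stood apart from the other 3 for 13 of 212 named genes, on the log2(signal + 1) scale. Chance alone singles out about 1 in 20 groups in this way. The array read high for Tic20-IV (10.07 on array 2, with the others up to 9.71), RPL5B (12.21 on array 4), NPR1 (9.87 on array 4), PRL (7.51 on array 2) and XTH4 (12.88 on array 2). It read low for RP1 (13.53 on array 1), RUP1 (9.04 on array 4), GLK2 (8.08 on array 3), AOS (6.47 on array 3), XTH33 (4.38 on array 3), XCP1 (9.0 on array 1), ACT2 (12.84 on array 4) and ATMG01370 (8.43 on array 2).

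The array without lincomycin that was left out stood apart from the 3 others of its group in 5 measures: a median rank correlation of 0.619, a GAPDH 3′ minus 5′ difference of 6.31, a Dap signal of 3.52 on the log2 scale, a median signal of 293.9 and a first quartile of 162.8. Its weight among the 8 arrays at 24 h was 0.045, against 1.2 to 1.91 for the others.

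The effect of lincomycin at 24 h differed from that at 4 h for 4161 probe sets in limma's contrast. Among named genes it was higher by 5.19 for BCB, 4.72 for TCH4, 4.68 for PHI-1, 4.27 for SEN1 and 4.26 for BCAT-2, on the log2 scale. The difference was -3.94 for AT3G05730, -3.86 for AT1G13650, -3.72 for CYP83A1, -3.71 for MES18 and -3.66 for BCAT4. The effect differed from that at 0 h for 6844 probe sets. This difference was 6.35 for SEN1, 6.32 for BCAT-2, 6.16 for PAP85, 5.97 for ASN1 and 5.87 for THA1, and it was -6.59 for LOX2, -6.47 for AT1G13650, -5.32 for MES18, -5.24 for CRK21 and -5.16 for AT2G25510.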

How the results depend on the processing

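The counts of probe sets that passed the test at 24 h were 5960 to 7532 over the 7 arrays alone, all 47 arrays, late arrays only, array weights, quantile scaling, a pseudocount of 16 and the filter on dim probe sets, and 6187 to 6882 when each array was left out in turn, against 7321 reported. With the replicate block in a fit of the 7 arrays, 1491 passed, 562 higher and 929 lower, with 495 large rises and 877 large falls; the numbers do not pair these arrays, and this fit has few residual degrees of freedom. The share of calls that were higher was 65.8%, against 37.7% with the replicate block, 58.2% after quantile scaling and 60.0% with all 47 arrays, where the median change of all probe sets was -0.075. Differences from 4 h numbered 3553 to 4430 and those from 0 h 5903 to 7006 over the alternatives run. Some of the 212 named genes kept their sign but no longer passed. They numbered 50 with the replicate block, 18 with all 47 arrays, 17 with array weights and 15 with the 7 arrays only. After quantile scaling they numbered 8, with late arrays only 5, with a pseudocount of 16 3, and with any 1 array left out 2 to 15. In the authors' deposited table they were 20 of 211. Genes whose sign turned are not in these counts, and they did not pass under the same alternative either. Signs turned with all 47 arrays for RPL5B (0.51), AT2G19730 (0.0049), TCP11 (0.69), SUC2 (0.39), ATML1 (0.22), ATMG00630 (-0.0117) and ATMG00010 (-0.26), and after quantile scaling for AT2G19730 (0.0857). In the authors' deposited table they turned for TIC21 (0.30), RPS6 (0.0936), RPL5B (0.82), AT2G19730 (0.21), TCP11 (0.28), TT8 (-0.19), HSFA2 (-0.21), XTH33 (-0.83), SUC2 (1.05), ATML1 (0.28), ATMG00150 (-0.19), ATMG00630 (-0.38) and ATMG00010 (-0.97). List medians turned for cytosolic ribosomal proteins (0.0049 with all 47 arrays and 0.0909 after quantile scaling), and with all 47 arrays for nitrogen assimilation (0.35) and the mitochondrial genome (-0.37). The cause was not tested. Signals near the floor limit 20 of the 212 named genes, whose means lay below it in 1 or both groups.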
